A study of Homo sapiens with 12 samples.

Results

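LUM (lumican) and DCN (decorin) encode secreted proteoglycans of the small leucine-rich family and are described here in BT-549, an established human breast cancer cell line of mesenchymal-like, triple-negative type. The pair was selected on its measured levels in these arrays. LUM and DCN are 2 of 14884 genes that carried a symbol on the arrays, and each was read by 1 transcript cluster, a set of probes summarized to 1 value. The RNA came from 3 stably transfected derivatives of BT-549 and was read on Affymetrix Human Gene ST arrays, with 4 arrays per line. BT-A6sh5 cells carried shRNA-5 against annexin A6 (ANXA6), BT-A6sh2 cells carried shRNA-2 against ANXA6, and BT-EV cells carried the control construct, an empty vector in the paper and a control shRNA in the sample labels. All 3 lines were grown in the same serum-containing medium, and the comparison asks which genes respond to lower ANXA6. Each shRNA is represented by 1 line, which the paper calls a sub-clone, so that the shRNA, the degree of ANXA6 depletion and the line cannot be told apart.

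Small leucine-rich proteoglycans are matrix proteins whose core is a curved stack of leucine-rich repeats, to which 1 or more glycosaminoglycan chains may be attached. Lumican carries keratan sulfate in the cornea and is a glycoprotein with few or no sulfated chains in many other tissues, and decorin carries a chondroitin or dermatan sulfate chain. Both bind collagen and limit the width and spacing of its fibrils. Decorin also binds TGF-beta and several growth factor receptors, among them EGFR and MET, and is known as an inhibitor of tumor cell growth. In breast tissue both genes are known mainly as products of stromal fibroblasts rather than of the carcinoma cells.

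ANXA6 mRNA had log2 levels between 8.69 and 8.89 in BT-A6sh5 cells, between 10.32 and 10.57 in BT-A6sh2 cells and between 11.37 and 11.43 in BT-EV cells, which fits the construct named in the title of every array. BT-A6sh2 array 1 carries one label that names the other shRNA. Its ANXA6 level of 10.57 lay outside the BT-A6sh5 range, and the array was counted with BT-A6sh2, as its title and its other labels name it. The deposited values are RMA log2 levels, so that a difference of 1 is a doubling of signal. The array medians lay between 4.92 and 5.05. BT-A6sh2 arrays 1 and 3 stood apart from the other 10 arrays. Their 10th percentile was 3.17 on both, against 2.65 to 2.93 elsewhere, their standard deviation over all transcript clusters was 2.18 and 2.19, against 2.26 to 2.33, and limma's array weights gave them 0.247 and 0.309, against 0.639 to 2.38. For this reason leaving both out together was one of the alternative settings. The median standard deviation of a transcript cluster among the arrays of a line was 0.182 in BT-A6sh5, 0.292 in BT-A6sh2 and 0.127 in BT-EV. Hybridization controls, transcripts added to each sample, averaged 8.50 to 8.92 in BT-A6sh5, 8.66 to 9.05 in BT-A6sh2 and 8.10 to 8.29 in BT-EV. They were thus higher in both knockdown lines, and their part in the results below was not tested. The 4 arrays are called technical replicates in the paper and biological replicas in the sample titles. A p-value here accounts for array-to-array spread alone, which may be technical, and its precision is set by having 4 arrays per line.

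LUM was high in BT-A6sh5 cells and low in the other lines, where it lay near the background of the arrays. Its log2 level on the 4 BT-A6sh5 arrays was 11.73, 11.89, 11.77 and 11.80. On the BT-A6sh2 arrays it was 4.43, 3.83, 3.36 and 3.40, and on the BT-EV arrays it was 4.07, 4.28, 3.93 and 4.27. The lowest BT-A6sh5 array stood 7.45 above the highest BT-EV array on the log2 scale and 7.30 above the highest BT-A6sh2 array, so that the lines did not overlap.

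The files hold no detection call. The median of the array's own background probe sets was 3.91 to 4.08 in BT-A6sh5, 3.98 to 4.28 in BT-A6sh2 and 3.95 to 4.06 in BT-EV. LUM lay below this median on 3 of the 4 BT-A6sh2 arrays and 1 of the 4 BT-EV arrays, and DCN lay below it on all 4 arrays of both lines. Whether LUM or DCN transcript was present at all in BT-A6sh2 or BT-EV cells cannot be read from these values. Fold differences are therefore given as lower bounds, in which the level on each array of the low line is the higher of the gene's own value and the background median. They are bounds only if this median stands for the background of the gene's own probes. The highest background probe set of an array lay at 8.76 to 9.44, below LUM and above DCN in BT-A6sh5. The presence of DCN transcript in BT-A6sh5 is thus not certain either. In RNA of whole cultures, a larger share of cells with the transcript and more transcript per cell cannot be told apart either.

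The mean LUM level was 11.80 ± 0.066 in BT-A6sh5 cells, 3.75 ± 0.50 in BT-A6sh2 cells and 4.14 ± 0.17 in BT-EV cells (SD, n = 4 each). The measured log2 difference was 7.66 (standard error 0.20) for BT-A6sh5 against BT-EV and 8.04 for BT-A6sh5 against BT-A6sh2. With the background median as floor, LUM signal was at least 201-fold higher in BT-A6sh5 than in BT-EV and at least 200.5-fold higher than in BT-A6sh2. These values chose the gene and are given without a test. For scale, the limma fit called 4.11% of all transcript clusters higher and 6.71% lower in BT-A6sh5 against BT-EV, and 8.16% higher and 11.4% lower in BT-A6sh5 against BT-A6sh2, at an adjusted p under 0.05.

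BT-A6sh2 cells did not share this level. The mean difference of LUM from BT-EV was -0.38 (standard error 0.20, from a spread pooled over all lines). The arrays of the 2 lines overlapped. BT-A6sh2 array 1 lay above all 4 BT-EV arrays and the other 3 BT-A6sh2 arrays lay below them. Without array 1, the one with a conflicting label, the difference was -0.61 (standard error 0.13). Across all transcript clusters this comparison called 5.35% higher and 3.13% lower. The LUM level was thus highest in BT-A6sh5, and whether BT-A6sh2 and BT-EV, both near background, overlapped rested on BT-A6sh2 array 1.

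DCN was also highest in BT-A6sh5, at a much smaller difference. Its log2 level was 4.77, 5.28, 4.89 and 4.75 in BT-A6sh5 cells, 3.43, 3.63, 3.86 and 3.47 in BT-A6sh2 cells and 3.60, 3.53, 3.71 and 3.53 in BT-EV cells. No BT-A6sh5 array overlapped either of the other lines, the lowest of them lying 1.04 above the highest BT-EV array and 0.89 above the highest BT-A6sh2 array. Within BT-A6sh5, array 2 was the highest and the other 3 lay close together.

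The mean DCN level was 4.92 ± 0.25 in BT-A6sh5 cells, 3.60 ± 0.19 in BT-A6sh2 cells and 3.59 ± 0.088 in BT-EV cells (SD, n = 4 each). The measured log2 level of DCN was 1.33 higher in BT-A6sh5 than in BT-EV (standard error 0.13) and 1.32 higher than in BT-A6sh2. With the background median as floor, DCN signal was at least 1.87-fold higher in BT-A6sh5 than in BT-EV and at least 1.75-fold higher than in BT-A6sh2. DCN in BT-A6sh5 lay above 44.2% to 55.4% of the transcript clusters on its arrays. BT-A6sh2 and BT-EV differed in DCN by 0.0056 (standard error 0.13) and overlapped, and the sign of this difference changed with the processing. The DCN values also chose the gene and carry no test.

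**Figure D1:**
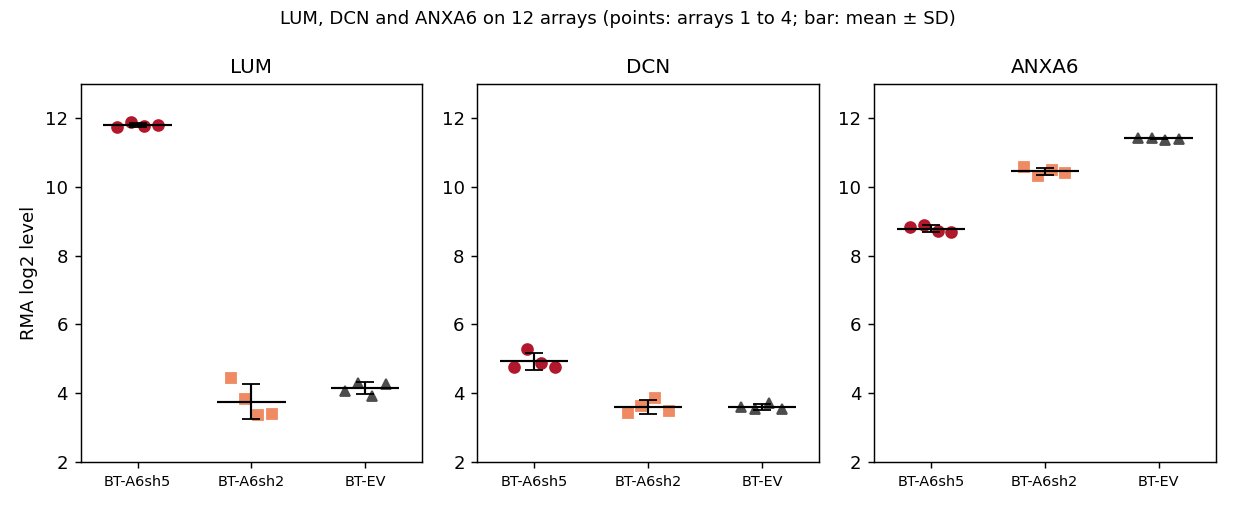
RMA log2 level (vertical axis) of LUM, DCN and ANXA6 on each array of BT-A6sh5, BT-A6sh2 and BT-EV. Points are arrays and bars give the mean ± SD of 4. LUM sat between 11.73 and 11.89 in BT-A6sh5 and did not pass 4.43 elsewhere, DCN sat between 4.75 and 5.28 in BT-A6sh5 and did not pass 3.86 elsewhere, and ANXA6 was lowest in BT-A6sh5.

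Over all 12 arrays the LUM and DCN profiles had a Pearson r of 0.958. This value describes the step between the 4 BT-A6sh5 arrays and the other 8. Over the 8 arrays of BT-A6sh2 and BT-EV the r was -0.564, with LUM highest on BT-A6sh2 array 1 and DCN highest on BT-A6sh2 array 3. The 2 genes thus shared the step in BT-A6sh5. On the other 8 arrays DCN lay below the background median and LUM near it, so nothing is read from their order there.

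None of the other small leucine-rich proteoglycan genes that were measured showed a difference as large as that of DCN in BT-A6sh5. Of the 15 relatives listed, 14 were measured, and ECM2 was not analysed here. In BT-A6sh5 against BT-EV none of the 14 was called higher and 1 was called lower by limma after Benjamini-Hochberg adjustment over all transcript clusters. At an unadjusted p under 0.05 there were 2, OMD and TSKU. With 1 transcript cluster per named gene, the same comparison called 6.3% of all genes higher and 12.7% lower after adjustment, and 32.2% had an unadjusted p under 0.05. The median log2 difference of the 14 relatives was 0.11, beside 0.0051 over all named genes. With 14 genes these counts lie near the shares over all named genes, and nothing particular to the family is read from them. ASPN, KERA, OMD and OGN had line means between 2.70 and 3.40, below the background median of every array (3.91 to 4.28). Whether their transcripts were present, and so whether they changed, cannot be read from these values.

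TSKU (tsukushi), a secreted relative known as a regulator of several developmental signals, was the one that fell. Its log2 level was 7.57, 7.59, 7.82 and 7.59 in BT-A6sh5 cells, against 8.16, 8.22, 8.01 and 8.18 in BT-EV cells, with no overlap. The difference was -0.50 (adjusted p = 0.0157, limma), and the adjusted p became 0.0542 without BT-EV array 2 and 0.0509 without BT-EV array 4. In BT-A6sh2 cells TSKU stood at 7.63 to 8.14 and was not called (difference -0.28, adjusted p = 0.141).

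The relatives closest to decorin were BGN (biglycan) and ASPN (asporin), which like decorin bind collagen. BGN had log2 levels of 6.93, 6.65, 6.54 and 6.87 in BT-A6sh5 cells, 6.45, 6.77, 6.67 and 6.36 in BT-A6sh2 cells and 6.61, 6.69, 6.66 and 6.72 in BT-EV cells. The lines overlapped in BGN, and the difference of BT-A6sh5 from BT-EV was 0.079 (standard error 0.12, adjusted p = 0.805, limma). ASPN differed by 0.046 in BT-A6sh5 and 0.34 in BT-A6sh2, neither of which was called.

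The relatives closest to lumican are FMOD (fibromodulin), KERA (keratocan), PRELP and OMD (osteomodulin), most of them carriers of keratan sulfate. Their differences in BT-A6sh5 against BT-EV were 0.18, 0.13, -0.082 and 0.40, and none was called. OMD had the largest of the 4. Its log2 level was 3.31, 3.18, 3.23 and 3.73 in BT-A6sh5 cells and 2.86, 3.04, 2.85 and 3.12 in BT-EV cells, and although the 2 lines did not overlap, the adjusted p was 0.159. With array weights OMD was called higher (adjusted p = 0.0473). KERA differed by 0.59 in BT-A6sh2 against BT-EV with an adjusted p of 0.108. The KERA value rested on BT-A6sh2 arrays 1 and 3, the pair that stood apart over all transcript clusters, at 3.79 and 3.77, against 2.90 and 2.71 on the other 2 arrays of that line and 2.59 to 2.82 in BT-EV, and its adjusted p was 0.048 without BT-A6sh2 array 2 and 0.0324 without array 4.

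The remaining relatives, EPYC (epiphycan), OPTC (opticin), OGN (osteoglycin), CHAD (chondroadherin), NYX (nyctalopin), PODN (podocan) and PODNL1, differed by -0.34 to 0.29 from BT-EV in BT-A6sh5 and by -0.28 to 0.31 in BT-A6sh2. None of them was called in either comparison. Across the family, none of the 14 was called in BT-A6sh2 against BT-EV, where 5.13% of all named genes were called higher and 4.78% lower, and 4 of the 14 had an unadjusted p under 0.05, beside 28.4% of all named genes. Besides KERA as above, TSKU was called there (adjusted p = 0.0402) without BT-A6sh2 arrays 1 and 3 together. In BT-A6sh5 against BT-A6sh2, 11.3% of all named genes were called higher and 17.3% lower. In that comparison OPTC was the only relative called (difference 0.33, adjusted p = 0.0327), and its call was lost in 10 of 20 alternative settings, among them leaving out BT-EV array 4, BT-A6sh5 array 1, 3 or 4, or BT-A6sh2 array 1. KERA was called lower there without BT-A6sh2 array 4 (adjusted p = 0.0353).

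**Figure D2:**
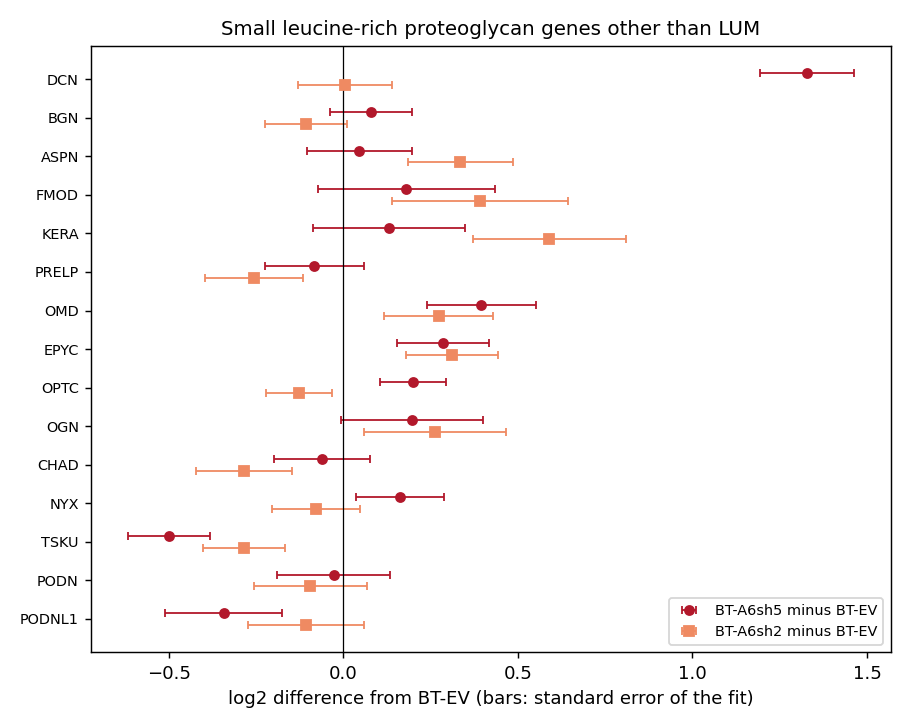
Log2 difference from BT-EV (horizontal axis) of DCN and its 14 measured relatives in BT-A6sh5 and BT-A6sh2, with the standard error of the fit as bars. LUM, at 7.66 and -0.38, is left out for scale. DCN in BT-A6sh5 lies at 1.33, and the relatives lie between -0.50 and 0.59.

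LUM and DCN are adjacent on chromosome 12, in a row of small leucine-rich proteoglycan genes that also holds KERA and EPYC. Gene order was taken from the RefSeq gene table of GRCh38.p14. Of the 8 nearest protein-coding genes on each side, 11 were measured. In BT-A6sh5 against BT-EV 1 of the 11 was called higher (9.09%) and none lower, beside 6.3% and 12.7% of all named genes. At an unadjusted p under 0.05 there were 5, beside 32.2% of all named genes, 1 of them higher and 4 lower. With array weights 3 neighbors were called lower, and 2 among transcript clusters above the median level. The median difference of the 11 was -0.086.

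KERA, the measured gene next to LUM, had log2 levels of 2.82, 2.92, 2.78 and 2.81 in BT-A6sh5 cells and 2.67, 2.73, 2.59 and 2.82 in BT-EV cells. EPYC, one place further, had levels of 4.92, 4.73, 4.86 and 4.54 in BT-A6sh5 cells and 4.48, 4.38, 4.68 and 4.37 in BT-EV cells. Both overlapped between the lines. On the other side, BTG1 was not analysed here, and PLEKHG7, the nearest measured gene past DCN, differed by 0.29 (adjusted p = 0.466, limma).

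The neighbor that rose was SOCS2, an inhibitor of cytokine and growth hormone signaling, 7 places beyond DCN. SOCS2 stood at 6.62, 6.98, 6.82 and 6.84 in BT-A6sh5 cells, against 6.32, 6.33, 6.38 and 6.17 in BT-EV cells. The difference was 0.52 (adjusted p = 0.00804), and the genes between DCN and SOCS2 that were measured (PLEKHG7, EEA1, NUDT4, UBE2N and MRPL42) were not called. EEA1 encodes an endosomal tethering protein and UBE2N a ubiquitin-conjugating enzyme, and they differed by -0.33 and -0.37. EEA1 was called lower without BT-A6sh2 array 1 (adjusted p = 0.0317), without BT-A6sh2 arrays 1 and 3 together (0.0254), with each pair of lines fitted alone (0.033) and with array weights (0.0357). UBE2N was called lower with array weights (adjusted p = 0.0249) and above the median level (0.0457), and NUDT4 with array weights (0.0439). CRADD, POC1B-GALNT4 and CCER1 differed by -0.26 to -0.086 and were not called, apart from POC1B-GALNT4 above the median level (adjusted p = 0.0329). None of the 11 was called in BT-A6sh2 against BT-EV, with 5 at an unadjusted p under 0.05, beside 28.4% of all named genes. Leaving out BT-A6sh2 array 2 or 4 called KERA higher there, and EEA1 was called lower with a trended robust prior (adjusted p = 0.0418) and above the median level (0.0467).

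**Figure D3:**
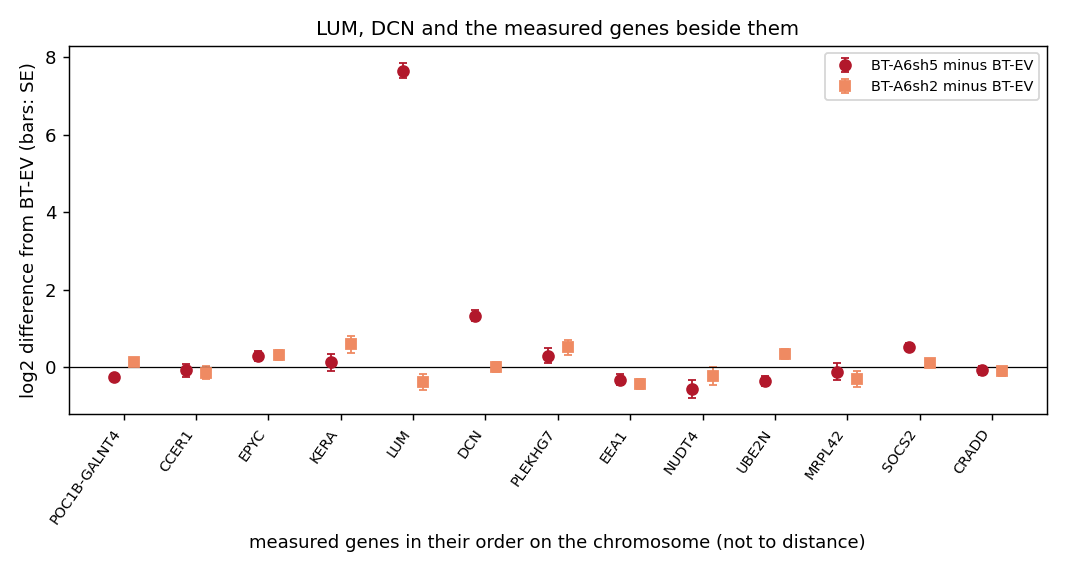
Log2 difference from BT-EV (vertical axis, bars give the standard error) of LUM, DCN and the 11 measured genes beside them, in chromosomal order and not to distance. LUM at 7.66 and DCN at 1.33 in BT-A6sh5 stand above their neighbors, whose differences run from -0.55 to 0.59 over both knockdown lines.

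Seen over all 98 measured genes of the 7 lists drawn up around the pair, 14 were higher and 20 lower in BT-A6sh5 against BT-EV, which is 14.3% and 20.4%, beside 6.3% and 12.7% of all named genes. In BT-A6sh2 against BT-EV 3 were higher and 11 lower, which is 3.06% and 11.2%, beside 5.13% and 4.78%. The BT-A6sh2 counts depended on single arrays. There were 5 higher without BT-A6sh2 array 2, and 6, 7 and 6 lower without BT-EV arrays 1, 3 and 4. In BT-A6sh5 against BT-A6sh2 23 were higher and 15 lower, which is 23.5% and 15.3%, beside 11.3% and 17.3%. These lists were drawn up with results of these data known, and nothing particular to them is read from the shares. The 3 comparisons share arrays and are not independent of one another.

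Genes that build and sulfate glycosaminoglycan chains changed in both directions in BT-A6sh5 cells. Of 22 measured, 5 were higher and 5 lower than in BT-EV, 22.7% each beside 6.3% and 12.7% of all named genes, and the median difference was 0.013. The enzymes that fell were mainly chondroitin sulfotransferases. CHST3, which sulfates the 6 position of chondroitin, stood at 8.44, 8.45, 8.52 and 8.50 in BT-A6sh5 cells, against 9.93, 10.08, 9.92 and 9.97 in BT-EV cells (difference -1.50, adjusted p = 9.94e-06, limma). CHST11, a chondroitin 4-O-sulfotransferase, fell by 1.36 (adjusted p = 0.000279), CHST15 fell by 0.95 (adjusted p = 0.000451) and CHST12 fell by 0.75 (adjusted p = 0.000382). These 4 were named for the size of their differences, which favors a lack of overlap between BT-A6sh5 and BT-EV in advance. The share of all genes without overlap was not counted, and nothing is read from it here.

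CHST14, the dermatan 4-O-sulfotransferase that acts on chains of the kind decorin carries, moved the other way. It stood at 9.26, 9.29, 9.16 and 9.01 in BT-A6sh5 cells and 8.53, 8.56, 8.45 and 8.54 in BT-EV cells (difference 0.65, adjusted p = 0.00144). PAPSS2, which makes the sulfate donor of all these enzymes, was 0.42 higher in BT-A6sh5 (adjusted p = 0.00874) and 0.76 lower in BT-A6sh2 (adjusted p = 0.000952) than in BT-EV, with no overlap in either case. The other called genes, named after their values were seen, were CHSY1, DSEL and CHST7, which were higher, and CSGALNACT2, which was lower. The count of higher genes was 3 without BT-EV array 1, 2 or 4 or BT-A6sh5 array 1. In BT-A6sh2 against BT-EV none was higher and 2 were lower, PAPSS1 and PAPSS2, which is 9.09% beside 4.78% of all named genes, with 7 of the 22 at an unadjusted p under 0.05, beside 28.4%. That count of lower genes was 1 without BT-EV array 1, 3 or 4, and 1 gene was higher without BT-A6sh5 array 3 or BT-A6sh2 array 3.

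Genes of collagen fibril formation, the process lumican and decorin act on, also split. Of 14 measured, 4 were higher (28.6%) and 3 lower (21.4%) in BT-A6sh5 against BT-EV, beside 6.3% and 12.7% of all named genes, and no fibrillar collagen gene was among those analysed here. The lysyl oxidases, which cross-link collagen and elastin, went in both directions. LOXL3 stood at 7.65, 7.42, 7.30 and 7.31 in BT-A6sh5 cells, against 6.08, 6.21, 5.81 and 6.18 in BT-EV cells (difference 1.35, adjusted p = 5.68e-05, limma). LOXL1 was 0.78 higher (adjusted p = 0.000294), while LOXL2 fell by 0.75 (adjusted p = 0.000232) and LOX fell by 0.34 (adjusted p = 0.0142).

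Among the genes that process or fold procollagen, PCOLCE2, an enhancer of procollagen cleavage, was 0.55 higher (adjusted p = 0.00113) and PPIB was 0.30 higher (adjusted p = 0.0162). CRTAP, a partner of prolyl hydroxylase, fell by 0.53 (adjusted p = 0.00492). P3H1, that hydroxylase, was not called in BT-A6sh5 (difference 0.051) and fell by 0.40 in BT-A6sh2 (adjusted p = 0.0153). In BT-A6sh2 against BT-EV P3H1 and LOX were the 2 genes called, both lower (14.3% of 14, beside 4.78% of all named genes), and none was higher, with 5 at an unadjusted p under 0.05, beside 28.4%. The count of 2 went to 0 without BT-EV array 1 or 4, and to 1 without BT-EV array 2 or 3, BT-A6sh5 array 1, 2 or 3, or BT-A6sh2 array 1 or 4.

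**Figure D4:**
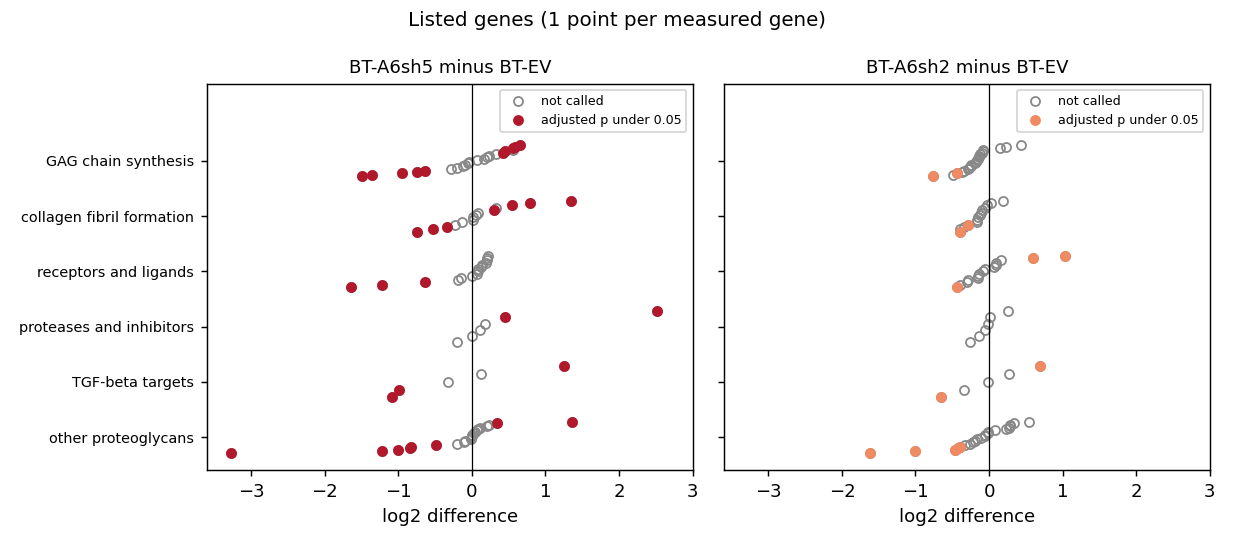
Log2 difference from BT-EV (horizontal axis) of each measured gene in 6 lists, in BT-A6sh5 on the left and BT-A6sh2 on the right. Filled points passed an adjusted p under 0.05 and open points did not, and the vertical offset within a list only orders the genes. In BT-A6sh5 the points run from -3.28 to 2.52 with calls on both sides of 0 in most lists.

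Of 15 measured receptors and ligands known to bind lumican or decorin or to be regulated by them, none was higher and 3 (20%) were lower in BT-A6sh5 against BT-EV, beside 6.3% and 12.7% of all named genes. At an unadjusted p under 0.05 there were 4, beside 32.2%. FN1 (fibronectin), at a difference of 0.23 (adjusted p = 0.0808), was called higher under 5 alternatives, with adjusted p of 0.00303 with a trended robust prior, 0.0156 above the median level, 0.0175 with array weights, 0.0428 without BT-A6sh2 arrays 1 and 3 together and 0.0478 with each pair of lines fitted alone. EGFR, a receptor that decorin binds and down-regulates, stood at 10.15, 10.09, 10.06 and 9.87 in BT-A6sh5 cells, against 10.57, 10.64, 10.77 and 10.73 in BT-EV cells (difference -0.63, adjusted p = 0.000566, limma). LRP1, an endocytic receptor that takes up decorin, fell by 1.22 (adjusted p = 2.72e-05). MSTN (myostatin), a TGF-beta family ligand that decorin binds, stood at 3.57 to 4.39 in BT-A6sh5 cells, against 5.40 to 5.71 in BT-EV cells (difference -1.64, adjusted p = 4.09e-05). Its BT-A6sh5 levels lay near the background median of those arrays (3.91 to 4.08), so the size of this difference is uncertain. MET, another receptor tyrosine kinase that decorin binds, differed by 0.12 and was not called. The receptor tyrosine kinases IGF1R, KDR and ERBB4 of this list differed by 0.20, -0.19 and -0.0037 and were not called.

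In BT-A6sh2 against BT-EV 2 of the 15 were higher (13.3%) and 1 lower (6.67%), beside 5.13% and 4.78% of all named genes. TLR4, a receptor for which soluble decorin and biglycan are ligands, stood at 5.63, 5.09, 5.28 and 5.81 in BT-A6sh2 cells, against 4.49, 4.26, 4.42 and 4.48 in BT-EV cells (difference 1.04, adjusted p = 0.0028, limma). In BT-A6sh5 cells TLR4 differed from BT-EV by 0.068 (adjusted p = 0.876), and BT-A6sh5 and BT-A6sh2 differed from each other in TLR4 by -0.97 (adjusted p = 0.000692). FN1 fell by 0.43 in BT-A6sh2 (adjusted p = 0.00757). MSTN was 0.60 higher in BT-A6sh2 (adjusted p = 0.0438), a call lost in 13 of 20 alternatives, including every setting that left out 1 BT-EV or 1 BT-A6sh2 array and those without BT-A6sh5 array 1 or 3. The count of lower genes was 2 without BT-A6sh2 array 2 and without BT-A6sh2 arrays 1 and 3 together.

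MMP13 and MMP14 were the 2 called genes among 6 measured proteases and inhibitors, and both rose in BT-A6sh5. They were 33.3% of the list, beside 6.3% of all named genes called higher. MMP13 (collagenase-3) ran from 5.10 to 6.29 in BT-A6sh5 cells, stood at 4.30, 3.03, 3.32 and 3.22 in BT-A6sh2 cells and ran from 3.13 to 3.30 in BT-EV cells. It was 2.52 higher in BT-A6sh5 than in BT-EV (standard error 0.29, adjusted p = 0.000116, limma), with no overlap. The BT-EV levels lay below the background median of those arrays (3.95 to 4.06), so the size of this difference is uncertain. MMP14, a membrane-bound collagenase known to cleave lumican, was 0.45 higher (adjusted p = 0.00794). The inhibitors TIMP1 to TIMP4, which restrain such proteases, were not called, with differences of -0.20 to 0.19. In BT-A6sh2 against BT-EV none of the 6 was called or had an unadjusted p under 0.05.

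Few TGF-beta target genes were measured, 5 in all, and they did not move one way. In BT-A6sh5 against BT-EV 1 was higher (20%) and 2 lower (40%), beside 6.3% and 12.7% of all named genes. TAGLN (transgelin), an actin-binding protein, stood at 8.09, 8.36, 8.06 and 8.09 in BT-A6sh5 cells, 7.64, 7.53, 7.71 and 7.47 in BT-A6sh2 cells and 6.74, 7.15, 6.76 and 6.94 in BT-EV cells. It was called higher in both knockdown lines, by 1.25 (adjusted p = 2.3e-05, limma) and 0.69 (adjusted p = 0.00677). SMAD6 and SKIL, which both dampen signaling in this family, fell by 1.09 and 0.99 in BT-A6sh5 (adjusted p = 9.41e-06 and 0.000492). SKIL also fell by 0.65 in BT-A6sh2 (adjusted p = 0.0177), which was lost without BT-EV array 3 (adjusted p = 0.0614) or array 4 (adjusted p = 0.052), and the count of lower genes was 2 without BT-A6sh2 array 2. SMAD7 and LTBP2 were not called in either line.

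The proteoglycans outside the family changed in both directions. Of 22 measured, 2 were higher (9.09%) and 6 lower (27.3%) in BT-A6sh5 against BT-EV, beside 6.3% and 12.7% of all named genes. SDC2 (syndecan-2), a membrane heparan sulfate proteoglycan, had the largest fall among the listed genes. Its log2 level was 4.91, 4.88, 4.82 and 4.84 in BT-A6sh5 cells, 7.90, 8.11, 8.17 and 8.16 in BT-A6sh2 cells and 8.22, 8.03, 8.12 and 8.19 in BT-EV cells. The 4 BT-A6sh5 arrays stood far below all others, and the difference from BT-EV was -3.28 (standard error 0.088, adjusted p = 4.97e-10, limma). SDC2 was not called in BT-A6sh2 (difference -0.056).

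SDC1 fell by 1.01 in BT-A6sh5 (adjusted p = 1.4e-05) and SDC3 fell by 0.83 (adjusted p = 5.55e-05), while SDC4 differed by -0.010. HSPG2 (perlecan), a basement membrane proteoglycan, fell by 0.84 (adjusted p = 9.05e-05), and CSPG4, a membrane chondroitin sulfate proteoglycan, fell by 1.22 (adjusted p = 9e-05). GPC1 was the sixth that fell, and GPC6 rose by 0.35 (adjusted p = 0.0165). Without BT-EV array 2 or BT-A6sh5 array 1 or 2, 1 gene in place of 2 was called higher.

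SRGN (serglycin), an intracellular granule proteoglycan, was the one gene of this list that moved in opposite directions in the knockdown lines and was called in both. It had log2 levels between 11.92 and 12.04 in BT-A6sh5 cells, between 8.77 and 9.17 in BT-A6sh2 cells and between 10.61 and 10.66 in BT-EV cells. The 3 lines did not overlap. SRGN was 1.36 higher in BT-A6sh5 (adjusted p = 2.01e-06) and 1.61 lower in BT-A6sh2 (difference -1.61, adjusted p = 6.87e-06) than in BT-EV, and the 2 knockdown lines differed by 2.98 (adjusted p = 1.77e-09). In BT-A6sh2 against BT-EV 5 of the 22 were lower (22.7%, beside 4.78% of all named genes) and none higher, with 10 at an unadjusted p under 0.05, beside 28.4%. CSPG4 fell by 1.01 in BT-A6sh2 (adjusted p = 0.00221), and HSPG2 and SDC3 fell by 0.47 and 0.42. The count of 5 was 3 without BT-EV array 1 or 2, and 2 genes were higher without BT-A6sh2 array 2.

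Markers of other cell types were read beside the pair. Of 11 fibroblast markers 5 were measured, and their mean log2 level was 6.07 to 6.29 over the BT-A6sh5 arrays, 5.98 to 6.29 over the BT-A6sh2 arrays and 5.99 to 6.16 over the BT-EV arrays. MFAP5 was 0.62 higher and TCF21 0.55 higher in BT-A6sh5 (adjusted p = 0.00206 and 0.0262), FBLN1 fell by 0.61 (adjusted p = 0.0268), and THY1 and PI16 were not called. None of the 5 was called in BT-A6sh2 against BT-EV. Over all named genes 6.3% were called higher and 12.7% lower in BT-A6sh5 against BT-EV, and nothing particular is read from calls among 5 markers. The fibroblast markers PDGFRA, PDGFRB and FAP were not analysed here. The part of such cells in the LUM and DCN levels was not tested.

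The 6 mesenchymal breast cancer markers, all measured, averaged at most 9.09 on a BT-A6sh5 array, at most 9.12 on a BT-A6sh2 array and at least 9.25 on a BT-EV array. SNAI2, a transcription factor of mesenchymal cells, fell by 1.23 in BT-A6sh5 (adjusted p = 4.93e-07) and was the only one of the 6 called there. FN1 was the only one called in BT-A6sh2, where it fell by 0.43. The other differences ran from -0.22 to 0.23 in BT-A6sh5, with FN1 at 0.23 and TWIST1 at 0.12 above 0, and from -0.29 to -0.012 in BT-A6sh2. The 10 measured epithelial markers averaged 4.95 to 5.09 in BT-A6sh5, 4.89 to 5.08 in BT-A6sh2 and 5.02 to 5.16 in BT-EV. None of them was called in BT-A6sh5, and KRT18 alone was called in BT-A6sh2, where it was lower. Of the endothelial, leukocyte and adipocyte markers measured (5, 4 and 4) none was called in BT-A6sh5 against BT-EV. FABP4, an adipocyte marker that the paper reports as up-regulated in both knockdown lines, was not analysed here. Of 4 smooth muscle and pericyte markers MCAM was higher and NOTCH3 lower in BT-A6sh5, and NOTCH3 was also lower in BT-A6sh2. The hormone receptor genes ESR1 and PGR were not called in either line. Over all named genes 6.3% were called higher and 12.7% lower in BT-A6sh5, and 5.13% and 4.78% in BT-A6sh2, each against BT-EV. With so few genes per group, nothing particular to the markers is read from these calls.

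The genes whose profile over the 12 arrays was most like that of LUM were SAMD5, CCBE1, MID2, IGFBP4, EYA1, MME, TSPAN13, SQLE, FZD6 and NID2. They were picked by Pearson r among 802 named transcript clusters whose line means spanned at least 1 on the log2 scale. Their r was 0.9933 to 0.9977, and DCN took place 90 in the same ranking. All 10 were higher in BT-A6sh5 with no overlap, by 1.05 to 4.96 against BT-EV, and 9 of the 10 overlapped between BT-A6sh2 and BT-EV. The choice by r on the same arrays favors this pattern in advance, so nothing is read from these counts and no test is given.

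CCBE1, a secreted collagen and calcium-binding protein, had the largest difference of the 10. CCBE1 stood at 10.16, 9.98, 9.86 and 9.92 in BT-A6sh5 cells, 4.60, 4.95, 4.34 and 4.31 in BT-A6sh2 cells and 4.91, 5.25, 4.91 and 5.02 in BT-EV cells. NID2 (nidogen-2), a basement membrane protein, averaged 9.66 in BT-A6sh5, 6.19 in BT-A6sh2 and 6.14 in BT-EV. MME, a membrane metalloendopeptidase, and IGFBP4, which binds insulin-like growth factors, were 3.42 and 2.71 higher in BT-A6sh5 than in BT-EV. Over the 8 arrays of BT-A6sh2 and BT-EV alone, the r with LUM ran from -0.441 for MME to 0.824 for SAMD5. For all 10 genes it was below the value over 12 arrays, which includes the step in BT-A6sh5. LUM lay near background on these 8 arrays, so nothing is read from the r over them.

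The 5 genes most like DCN were AK5, ANKRD13B, LGR4, UBASH3B and FMN1, with r of 0.9748 to 0.9801, and LUM took place 47. They were 0.98 to 1.72 higher in BT-A6sh5 than in BT-EV, and all 5 overlapped between BT-A6sh2 and BT-EV, a pattern that the choice by r again favors. LGR4, a receptor for R-spondins in Wnt signaling, stood at 9.98, 10.06, 9.63 and 9.72 in BT-A6sh5 cells, 8.02, 8.25, 8.47 and 8.36 in BT-A6sh2 cells and 8.16, 8.08, 8.09 and 8.18 in BT-EV cells. Without the BT-A6sh5 arrays the r with DCN was 0.911 for ANKRD13B and 0.865 for UBASH3B and -0.03 for FMN1. DCN lay below the background median on all of those arrays, so nothing is read from these values.

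**Figure D5:**
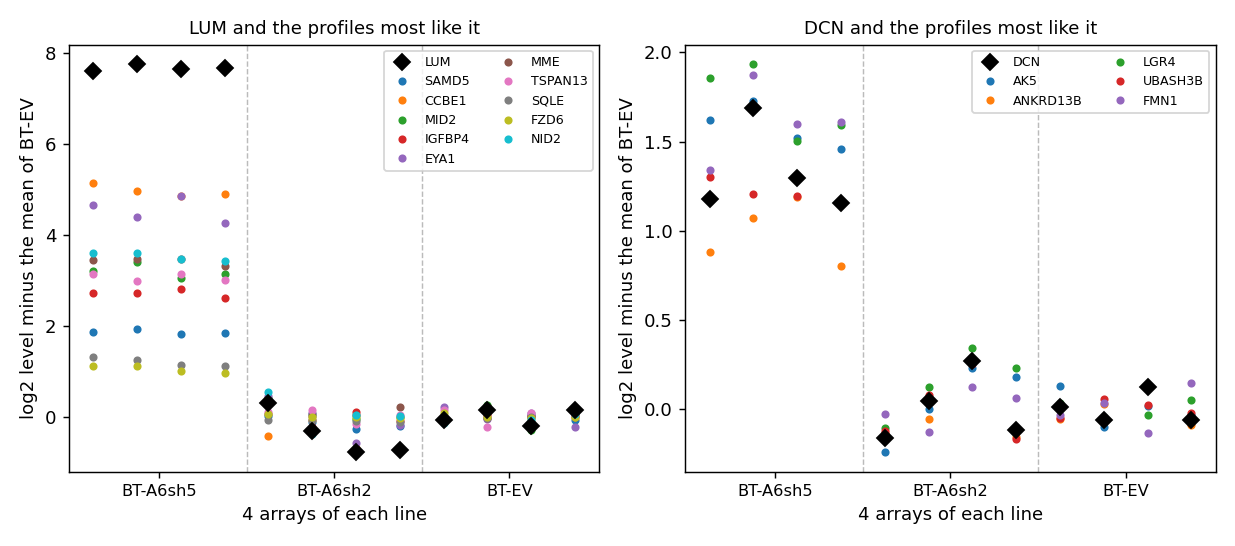
Log2 level minus the mean of BT-EV (vertical axis) on the 4 arrays of each line, for LUM with the 10 profiles most like it on the left and DCN with its 5 on the right. LUM (black) lies 7.60 to 7.75 above the BT-EV mean on the BT-A6sh5 arrays and DCN 1.16 to 1.69 above it, and in BT-A6sh2 LUM lies between -0.78 and 0.30.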

How the data were processed

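Total RNA of BT-A6sh5, BT-A6sh2 and BT-EV cells was amplified, labeled and hybridized to Affymetrix Human Gene ST arrays (4 per line). The authors made the deposited log2 values with Affymetrix Expression Console and RMA, which corrects background, normalizes arrays by quantiles and summarizes probes. The submitters' processing notes name affy, RMA and limma. RMA brings the distributions of all arrays together, so that values are relative to the whole array, and compresses differences of dim transcripts. The genome build is not given in the sources used here. No values were missing, 0 pairs of arrays were identical and 0 columns lacked a sample.

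Gene identifiers came from the platform annotation and were given their RefSeq symbol, or the platform's own symbol where none matched. Of 53617 transcript clusters, 16098 had 1 symbol and 37519 had none. For a gene with several clusters the one of highest mean was used. One linear model with a mean for each line was fitted in limma 3.58.1 under R 4.3.3, leaving 9 residual degrees of freedom, and moderated by eBayes. Its two-sided p-values were adjusted by Benjamini and Hochberg's method across every transcript cluster, and the threshold was 0.05. Standard errors are those of this fit, which uses 1 estimate of spread per transcript cluster for all lines. The median standard deviation was 0.292 in BT-A6sh2 and 0.127 in BT-EV. Standard errors and p-values may therefore understate the spread of BT-A6sh2. Python 3.11.15 with pandas 2.3.3 wrote the tables, matplotlib 3.10.9 drew the plots, and the procedure was tested on simulated data. The first bar for recovering added differences was missed because of transcript clusters with large spread. It was then reset to cover only the less variable clusters.

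The members and gene lists were chosen with earlier results of these data known. Named genes were LUM, DCN and ANXA6, every measured relative and neighbor, up to 6 genes per other list with the largest difference among those past the threshold in either knockdown line against BT-EV, and the 10 and 5 profiles most like LUM and DCN. Other names were added after their values were seen. Alternatives were fits of each pair of lines alone, a trended robust prior, transcript clusters above the median level, a repeated quantile normalization, median centring, array weights, the replicate number as a block, the transcript cluster of lowest mean per gene, leaving out each array in turn, and leaving out BT-A6sh2 arrays 1 and 3 together, which stood apart from the others. The correlations without BT-A6sh5 and the lower bounds were added after seeing the data.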

Additional observations from a re-analysis of the deposited data

Results flagged for a closer look

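Single arrays stood apart from the other 3 of their line in 11 of 207 gene and line combinations examined, which is close to the 1 in 20 that chance gives. In each, the gap to the nearest array took up most of the range of the 4. Neither LUM nor DCN was among them.

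On BT-A6sh5 arrays these were TAGLN on array 2 (log2 level 8.365), TSKU on array 3 (7.819), CRADD on array 3 (5.127) and MME on array 4 (11.48). On BT-A6sh2 arrays they were EEA1 on array 1 (8.94) and MME on array 4 (8.381). On BT-EV arrays they were CHST11 (7.012), FN1 (12.28), FZD6 (9.686) and SDC3 (7.185) on array 1 and SQLE (9.167) on array 4.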

How the results depend on the processing

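LUM stayed far higher in BT-A6sh5 under every alternative run, with differences of 7.63 to 7.66 from BT-EV and 7.59 to 7.71 when single arrays were left out. DCN stayed higher in BT-A6sh5 by 1.22 to 1.33, and by 1.21 to 1.39 when single arrays were left out, but could not be fitted above the median level because its mean lies below it. The small DCN difference between BT-A6sh2 and BT-EV (0.0056) changed sign to -0.173 with repeated quantile normalization, to -0.012 with array weights and to -0.039 without BT-A6sh2 arrays 1 and 3, and ran from -0.081 to 0.062 when single arrays were left out.

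Counts over the lists moved mainly in BT-A6sh2 against BT-EV, where 5 genes were higher with a trended robust prior and 6 lower with each pair of lines fitted alone. Single arrays gave 2 to 5 higher and 6 to 13 lower. In BT-A6sh5 against BT-A6sh2, 14 were higher with each pair fitted alone. Single arrays left 10 to 15 higher and 17 to 20 lower in BT-A6sh5 against BT-EV.

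Over all transcript clusters, BT-A6sh5 against BT-EV gave 5800 calls, 9058 with each pair fitted alone and 9908 with array weights. BT-A6sh5 against BT-A6sh2 gave 10477, and 5541 with each pair fitted alone. BT-A6sh2 against BT-EV gave 4551, and 1608 with each pair fitted alone, 2692 with repeated quantile normalization, 3013 with array weights, 2327 with the replicate block, 2368 without BT-A6sh2 arrays 1 and 3, and 1483 to 9093 when single arrays were left out. The cause of these shifts was not tested.

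The replicate numbers do not pair the arrays, since 4 of 12 arrays matched their own number best and same-numbered arrays correlated at -0.0764 to 0.0497. With the replicate block LUM and DCN in BT-A6sh5 differed from BT-EV by 7.66 and 1.33 as before. Of 52 other named genes tested, 28, 12 and 31 were called in BT-A6sh5 against BT-EV, BT-A6sh2 against BT-EV and BT-A6sh5 against BT-A6sh2, and 1, 5 and 6 of these lost the call under at least 1 alternative, with none reversing direction. Of the 24, 40 and 21 not called, 6, 8 and 2 gained a call under at least 1 alternative.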
